A study of Rattus norvegicus with 12 samples.

Results

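The genes described here are 38 named targets of ATF4, the transcription factor that cells make when amino acids run short, and they were chosen by name as known targets. Of the 38 genes, 37 had a row in the deposited table of 21071 genes and all 37 were among the 15650 genes with enough counts to be tested. Cth had no row under its symbol and is not analysed here, and 4 tRNA synthetases were found under the symbols Wars1, Sars1, Nars1 and Mars1.

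The data are 12 RNA-seq libraries of total RNA from rat nucleus pulposus cells, the cells at the soft centre of a spinal disc, with 3 libraries in each of 4 groups. The groups were erastin with miR-Exo, erastin with NPPC-Exo, miR-Exo alone and NPPC-Exo alone, so every library came from cells given exosomes, small vesicles shed by cells. NPPC-Exo are exosomes of nucleus pulposus progenitor cells, and miR-Exo are NPPC-Exo in which the microRNA miR-221-3p was overexpressed. Erastin blocks cystine import by the transporter system xc- and so triggers ferroptosis, a form of cell death in which iron drives the oxidation of membrane lipids. The labels give 50 µg/mL for NPPC-Exo and no separate dose for miR-Exo. They give erastin as a range, 0.1 to 5 µM for 48 h, without saying which dose a library received. The headers of the deposited table write Model for the libraries whose titles name erastin. Nothing in the labels states that the 3 libraries of a group were separate cultures or animals, so p-values measure the spread between libraries, which may be technical.

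When an amino acid is missing, uncharged tRNA activates the kinase GCN2, which phosphorylates the translation factor eIF2α. General translation then slows while translation of ATF4 goes up, and ATF4 switches on genes that make, import and charge amino acids. Other stresses reach the same factor through the kinases PERK, PKR and HRI, and the whole is called the integrated stress response. Many ATF4 targets carry a C/EBP-ATF response element, a short DNA site bound by ATF4 together with a C/EBP protein. Background knowledge from human cancer cell lines is that erastin raises several of these targets, Chac1 among them.

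The core of that element, searched as the letters TGATGNAA on both strands, was looked for in the RefSeq promoter windows of build GRCr8, which run from 250 bases before to 50 bases after each gene's start. Of the 37 genes, 32 had a window and 10 of these (31.2%) held the letters: Pycr1, Nupr1, Pck2, Slc7a1, Mars1, Cars, Nars1, Trib3, Jdp2 and Aars. The same letters stood in 3.98% of all 33469 windows and in 2.26% of the 10686 tested genes matched to a window by exact symbol. The 37 genes could also match under a symbol with an added digit, as Aars and Cars did, so the matching was not alike. Since the genes were picked as ATF4 targets, their share of 31.2% is a description of the choice. The sites of the 6 holders with the smallest adjusted p for erastin under NPPC-Exo are printed with 10 bases on each side, read 5′ to 3′ on the gene's strand, so that the shared core can be compared. Capitals mark the match, and a match on the other strand reads TTNCATCA.
Pycr1: gtcctgtgtaTGATGCAAtgtacaaggc
Nupr1: aaaggccagaTTGCATCAgacagggctt
Pck2: gccttcaaagTTACATCAgtatccttgc
Slc7a1: ggcgcgcggcTGATGAAAccggctcgga
Mars1: cccgttccggTTGCATCAgcgtgggctc
Cars: ggcgccgcggTTGCATCAgattctggaa
The matches began -131 bases from the start of Pycr1, -55 from that of Nupr1, -239 from that of Pck2, -30 from that of Slc7a1 and -17 from that of Mars1, and 18 bases inside Cars. Whole windows are shown for Pycr1 (chr10:106420763-106421062, minus strand) and Nupr1 (chr1:190645852-190646151, minus strand), the 2 holders with the smallest adjusted p in that comparison.
Pycr1 promoter: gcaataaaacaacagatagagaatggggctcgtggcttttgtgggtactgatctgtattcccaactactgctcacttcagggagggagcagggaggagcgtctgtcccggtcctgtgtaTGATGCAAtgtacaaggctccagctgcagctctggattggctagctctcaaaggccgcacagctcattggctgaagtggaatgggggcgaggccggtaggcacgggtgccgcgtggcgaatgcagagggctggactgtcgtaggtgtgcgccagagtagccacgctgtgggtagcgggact
Nupr1 promoter: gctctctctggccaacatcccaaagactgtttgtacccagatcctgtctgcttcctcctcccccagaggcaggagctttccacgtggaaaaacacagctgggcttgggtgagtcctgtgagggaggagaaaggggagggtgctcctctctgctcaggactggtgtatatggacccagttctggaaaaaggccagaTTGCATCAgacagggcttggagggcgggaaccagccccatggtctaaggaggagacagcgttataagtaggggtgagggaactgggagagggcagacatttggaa

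Library totals ran from 54616827 to 68865720 counts. Levels below are counts per 1000000 counts of the library (CPM) after trimmed-mean scaling, and differences are log2 fold changes ± SE from edgeR's quasi-likelihood test, called at a Benjamini-Hochberg adjusted p under 0.05. Mir221, the gene of the hairpin that carries miR-221-3p, separated the kinds of exosome, at 23.9 to 24.4 CPM with erastin and miR-Exo, 0.318 to 0.411 with erastin and NPPC-Exo, 26.4 to 29.1 with miR-Exo and 0.303 to 0.32 with NPPC-Exo. Of 14 nucleus pulposus markers 11 had a row, and Acan and Col2a1, the genes of the disc proteoglycan aggrecan and of type II collagen, averaged 6389.5 ± 242 and 1025 ± 314 CPM with NPPC-Exo alone (SD, n = 3). Krt18 averaged 0.0362 ± 0.0626 CPM there. Krt19, Tbxt and Shh were not analysed here. Col1a1, a collagen gene of fibroblasts, averaged 27163 ± 5104 CPM. In bulk RNA, fewer cells of a type and less RNA per cell cannot be told apart.

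Per length of gene, on the deposited FPKM scale (fragments per kilobase of gene, scaled to library size), the 37 genes spanned from 0.26 to 149 FPKM with NPPC-Exo alone, with a median of 36.35. Nupr1, a stress-induced chromatin protein, had the highest mean level at 149 FPKM, followed by the glycyl-, seryl- and glutamyl-prolyl-tRNA synthetases Gars, Sars1 and Eprs at 143, 138 and 136, and Atf4 itself at 124. The lowest were Cebpb, a C/EBP factor that partners ATF4, at 0.26 FPKM, the stress hormone gene Gdf15 at 2.05 and the arginine transporter Slc7a3 at 4.3. Cebpb held only 15 to 103 counts per library and Gdf15 42 to 695, so their values are the least precise. In the order of these means, 29 of 36 neighbouring pairs overlapped between libraries. The steps without overlap lay after Slc38a2, Slc7a5, Asns, Mars1, Jdp2, Slc6a9 and Gdf15, counting down. Vldlr, the receptor for very low density lipoprotein, stood 26th with erastin and miR-Exo, 29th with erastin and NPPC-Exo, 10th with miR-Exo and 12th with NPPC-Exo.

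Summed over the 37 genes, the level was 4559 ± 77.9 CPM with erastin and NPPC-Exo against 6237 ± 257 CPM with NPPC-Exo (SD, n = 3 each). It was 4887 ± 113 CPM with erastin and miR-Exo against 6620 ± 85.3 CPM with miR-Exo. The libraries with and without erastin did not overlap in this sum under either kind of exosome. The sum is on the trimmed-mean scale, with factors of 0.877 to 0.878 with NPPC-Exo and 1.06 to 1.08 with erastin and NPPC-Exo. They were 0.919 to 0.946 with miR-Exo and 1.14 to 1.15 with erastin and miR-Exo. Dividing by these factors widens the gap, and the sum was not computed by library size alone.

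**Figure D1:**
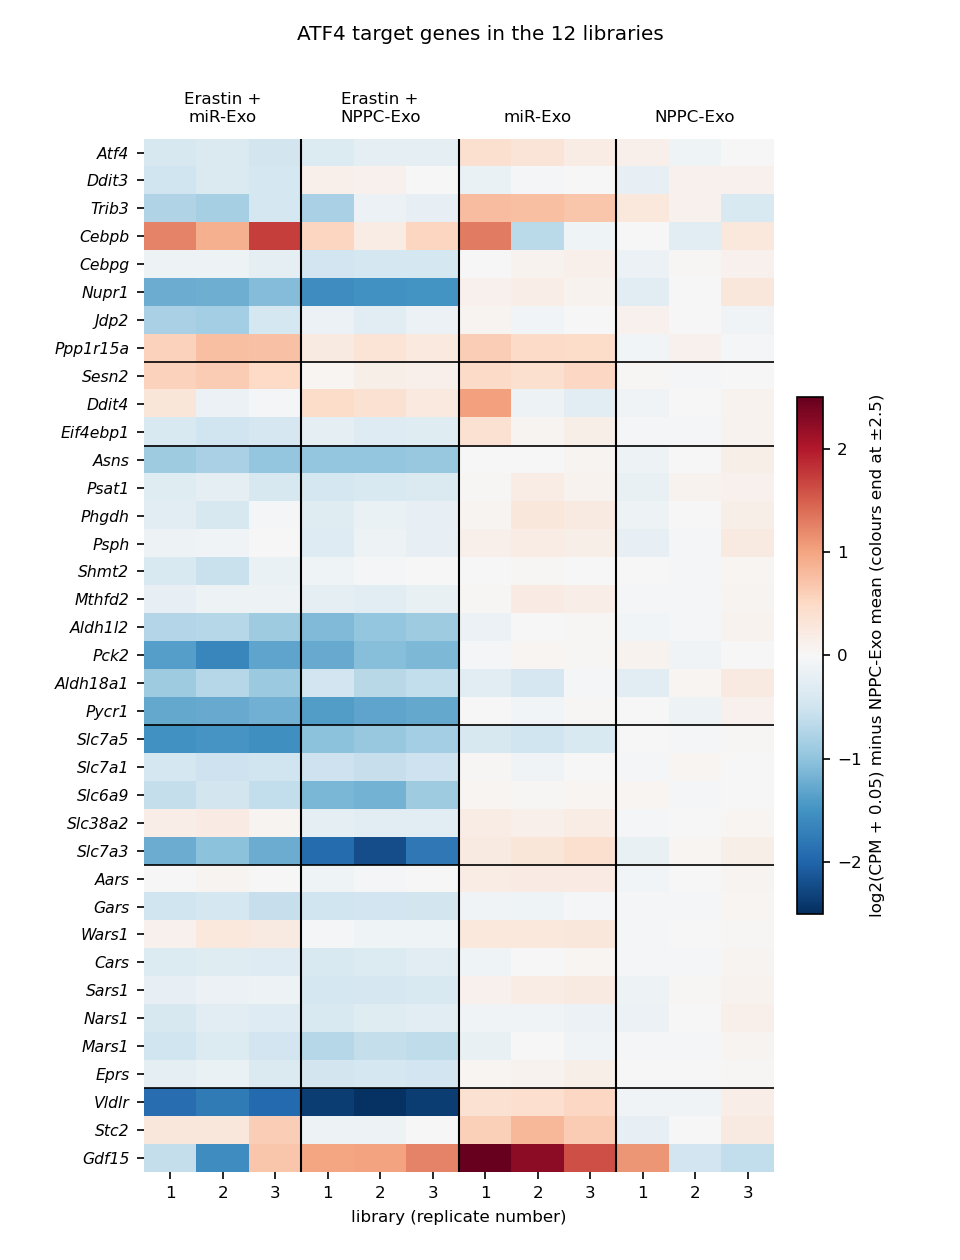
Heat map of log2(CPM + 0.05) minus the mean of the 3 NPPC-Exo libraries (colour) for the 37 genes (rows, by role) in the 12 libraries (columns, by group). Vldlr, Slc7a3, Nupr1, Pck2 and Pycr1 are lower in all 6 erastin libraries on the trimmed-mean scale, and Gdf15 and Cebpb vary most between libraries of 1 group.

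Under NPPC-Exo, erastin lowered 23 of the 37 genes and raised 1, with 13 not called, while 22.1% of all tested genes were called lower and 21.5% higher (43.6% called in all). The median log2 fold change was -0.33 over the 37 genes and 0.02 over all genes. Under miR-Exo, erastin lowered 29 of the 37 and raised 0 by edgeR's test, with 8 not called, against 24.4% of all genes called lower and 24.7% higher (49.1% in all), and the medians were -0.42 and 0.03. No member was called higher by DESeq2 under miR-Exo either, and only Ppp1r15a of the 37 was higher at an unadjusted edgeR p under 0.05. The comparisons share no library, and 22 of the 37 genes were lower in both, against 15.5% of all genes. Under NPPC-Exo, 26 of the 37 genes lay lower in every erastin library than in any library without it and 3 lay higher, against 26.6% and 27% of all genes. Under miR-Exo, 30 lay lower and 0 higher without overlap, against 28.1% and 30.3% of all genes. Scaled by library size alone, all genes together had a median of 0.30 under NPPC-Exo and 0.33 under miR-Exo. The 37 genes then split into 6 higher and 15 lower under NPPC-Exo and 6 higher and 17 lower under miR-Exo. Of all genes 40.9% were then called higher and 11.7% lower under NPPC-Exo, and 44.5% and 13.8% under miR-Exo. The distance between the median of the 37 genes and that of all genes was -0.35 under NPPC-Exo and -0.45 under miR-Exo. A change of scaling moves every gene by nearly the same amount. This distance therefore could not differ between the scalings and is no check on the calls. The fold changes below are relative to the trimmed-mean scale, on which the median gene hardly moved.

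**Figure D2:**
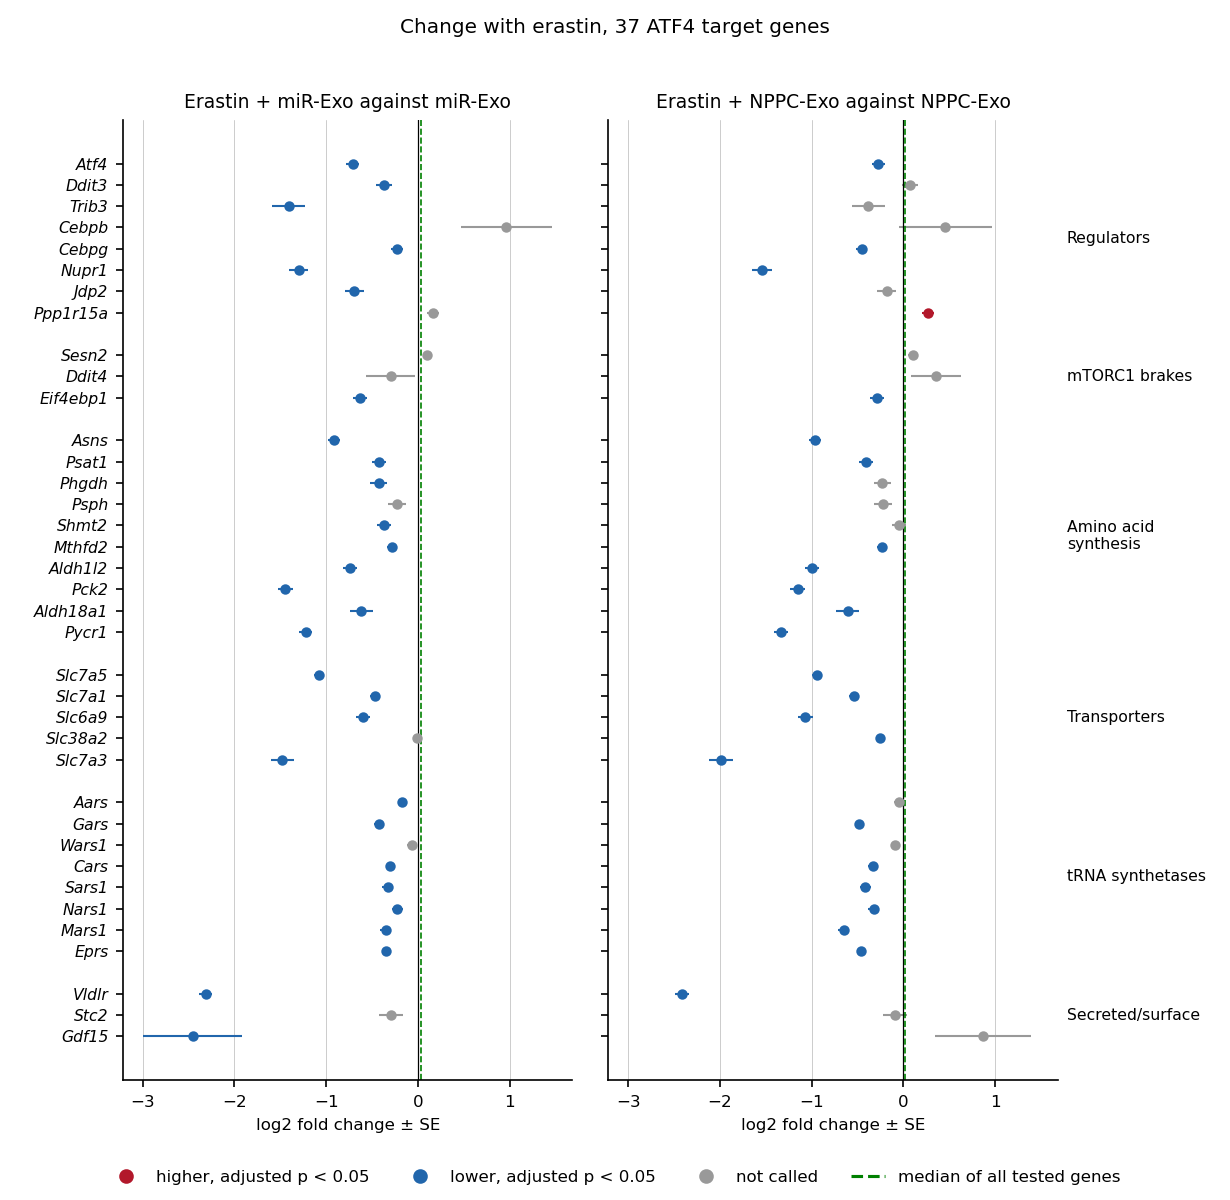
Log2 fold change with erastin (x axis, ± SE) of each of the 37 genes, grouped by role, under miR-Exo (left) and NPPC-Exo (right), with 3 libraries a group; the green dashed line marks the median of all tested genes. Vldlr lies at -2.32 on the left and -2.41 on the right, and 29 genes on the left and 23 on the right are called lower on the trimmed-mean scale, against 17 and 15 when scaled by library size alone.

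**Figure D3:**
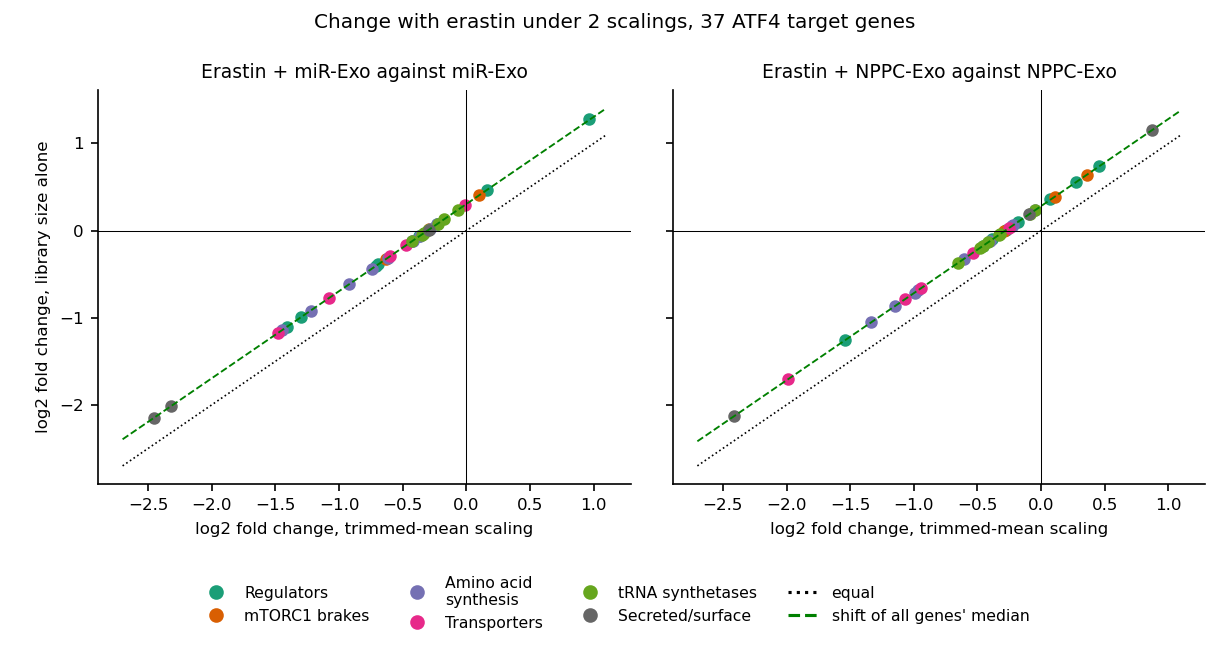
Log2 fold change with erastin of the 37 genes (points, coloured by role) on the trimmed-mean scale (x axis) and scaled by library size alone (y axis), under miR-Exo (left) and NPPC-Exo (right). The green dashed line is the equal line moved by the shift in the median of all genes. The points lie along it because a change of scaling moves every gene by nearly the same amount. Genes with small negative values such as Aars and Wars1 therefore lie above 0 on the y axis.

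Several defining markers moved with the same groups. The summed level of the nucleus pulposus markers was 1122 to 1269 CPM with erastin and NPPC-Exo against 7124 to 8157 CPM with NPPC-Exo, and 859.5 to 928.3 CPM with erastin and miR-Exo against 7103 to 8616 CPM with miR-Exo. Most of that sum was Acan and Col2a1. Of the 10 of these markers tested, 5 fell and 2 rose (Cd24 and Foxf1) under NPPC-Exo, and 7 fell and 2 rose (Cd24 and Ca12) under miR-Exo. The 6 of 7 fibroblast markers with a row summed to 20030 to 23420 CPM with erastin and NPPC-Exo against 47920 to 55430 CPM with NPPC-Exo, and to 11570 to 15450 CPM with erastin and miR-Exo against 47540 to 56620 CPM with miR-Exo. Macrophage markers summed to 12.83 to 17.33 CPM with erastin and NPPC-Exo, 7.116 to 9.279 with NPPC-Exo, 22.22 to 29.63 with erastin and miR-Exo and 9.905 to 11.35 with miR-Exo. Cd14 averaged 13.3 ± 2.29 CPM with erastin and NPPC-Exo and 23.4 ± 3.98 CPM with erastin and miR-Exo, and Adgre1 was at 0 in both erastin groups. The 4 of 6 endothelial markers with a row summed to 10.16 to 12.25 CPM with erastin and NPPC-Exo against 26.59 to 28.88 CPM with NPPC-Exo, and to 8.165 to 9.888 CPM with erastin and miR-Exo against 20.83 to 22.39 CPM with miR-Exo, and Kdr was at 0 in both erastin groups. The 2 of 4 muscle markers with a row summed to 5.491 to 10.12 CPM with erastin and NPPC-Exo against 82.92 to 86.47 CPM with NPPC-Exo, and to 1.404 to 3.02 CPM with erastin and miR-Exo against 49.57 to 55.1 CPM with miR-Exo. The part of these shifts in the results was not tested.

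Transporters had the lowest median of the 6 roles under NPPC-Exo. All 5 fell with erastin under NPPC-Exo (median -0.94) and 4 of 5 under miR-Exo (median -0.60), and scaled by library size alone 4 stayed lower under either kind of exosome while Slc38a2 turned to the other side of 0 and was called higher under miR-Exo. Slc7a3, a cationic amino acid transporter, had 4.04, 3.28 and 4.43 CPM with erastin and NPPC-Exo against 13.6, 16.0 and 17.1 CPM with NPPC-Exo. It had 6.5, 7.61 and 6.57 CPM with erastin and miR-Exo against 18.1, 19.0 and 20.5 CPM with miR-Exo. Every erastin library lay below every library without erastin, and the log2 fold changes were -1.99 ± 0.13 (adjusted p = 4.94e-08) and -1.48 ± 0.13 (adjusted p = 6.08e-07). Slc7a5, the light chain of the transporter of large neutral amino acids, had 193, 205 and 221 CPM with erastin and NPPC-Exo against 399.6, 384 and 403 CPM with NPPC-Exo. It had 139, 141 and 137 CPM with erastin and miR-Exo against 298, 279 and 304 CPM with miR-Exo. None of the 4 groups overlapped for Slc7a5, and erastin changed it by -0.94 ± 0.05 under NPPC-Exo (adjusted p = 1.14e-08) and -1.08 ± 0.05 under miR-Exo (adjusted p = 2.8e-09). The glycine transporter Slc6a9 fell by 1.07 on the log2 scale under NPPC-Exo (adjusted p = 1.3e-07) and by 0.60 under miR-Exo (adjusted p = 2.59e-05). The arginine transporter Slc7a1, also the receptor of ecotropic retroviruses, fell by 0.54 and 0.47. The glutamine transporter Slc38a2, the most abundant of the 5 in FPKM, fell by 0.25 under NPPC-Exo (adjusted p = 0.000312) and had -0.01 ± 0.04 under miR-Exo (adjusted p = 0.835).

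Of the 10 genes that make amino acids or supply one-carbon units, 7 fell under NPPC-Exo (median -0.51) and 9 under miR-Exo (median -0.52), with none higher; scaled by library size alone 5 fell under either, Shmt2 was higher under NPPC-Exo, and Mthfd2 turned sign without a call. Asns, which makes asparagine and is the standard reporter of this response, had 110.3, 109 and 111 CPM with erastin and NPPC-Exo against 196, 212 and 237 CPM with NPPC-Exo. It had 115, 122 and 110.0 CPM with erastin and miR-Exo against 214, 216 and 225 CPM with miR-Exo. Every erastin library lay below every library without it, and Asns fell by 0.96 (adjusted p = 5.61e-08) and 0.92 (adjusted p = 7.77e-08) on the log2 scale. Pycr1, the last enzyme of proline synthesis in mitochondria, had 15.8, 16.7 and 16.9 CPM with erastin and NPPC-Exo against 41.9, 38.1 and 44.3 CPM with NPPC-Exo. It had 17.1, 17.2 and 17.9 CPM with erastin and miR-Exo against 40.9, 39.3 and 41.9 CPM with miR-Exo. Its log2 fold changes were -1.33 ± 0.07 (adjusted p = 6.46e-09) and -1.22 ± 0.07 (adjusted p = 1.21e-08), with no overlap. Pck2, the mitochondrial enzyme that makes phosphoenolpyruvate, had 38.3, 44.0 and 42.4 CPM with erastin and NPPC-Exo against 97.5, 87.2 and 92.3 CPM with NPPC-Exo. It had 35.6, 29.8 and 37.2 CPM with erastin and miR-Exo against 89.9, 96.0 and 93.8 CPM with miR-Exo. Pck2 fell by 1.15 under NPPC-Exo (adjusted p = 1.05e-07) and by 1.45 under miR-Exo (adjusted p = 1.08e-08), again without overlap.

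Aldh1l2, which yields NADPH from folate in mitochondria, fell by 0.99 under NPPC-Exo and 0.74 under miR-Exo. Aldh18a1, which opens proline synthesis, fell by 0.61 and 0.62, and Psat1, the middle enzyme of serine synthesis, by 0.40 and 0.42. Phgdh and Psph, the first and last enzymes of serine synthesis, had -0.23 ± 0.09 and -0.22 ± 0.10 under NPPC-Exo, where neither was called. Under miR-Exo Phgdh fell by 0.43 and Psph had -0.23 ± 0.10 (adjusted p = 0.0633). Shmt2, which splits serine to glycine in mitochondria, had -0.05 ± 0.07 under NPPC-Exo and fell by 0.37 under miR-Exo. Mthfd2, the next enzyme of mitochondrial folate, fell by 0.23 and 0.29. Of these 7 genes only Aldh1l2 kept its call under every alternative run in both comparisons.

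Of the 8 tRNA synthetases, which load amino acids onto tRNAs, 6 fell under NPPC-Exo (median -0.37) and 7 under miR-Exo (median -0.31), and none rose; scaled by library size alone 3 fell and 2 rose under NPPC-Exo, and 1 fell and 2 rose under miR-Exo. The changes were small, from -0.65 for Mars1 to -0.05 for Aars under NPPC-Exo and from -0.43 for Gars to -0.07 for Wars1 under miR-Exo. Eprs, which loads both glutamate and proline, had 567, 578 and 563 CPM with erastin and NPPC-Exo against 772, 779 and 796 CPM with NPPC-Exo. It had 665, 699 and 609 CPM with erastin and miR-Exo against 813, 827 and 864 CPM with miR-Exo. Erastin libraries were lower throughout, and Eprs fell by 0.46 (adjusted p = 4.73e-06) and 0.34 (adjusted p = 6.14e-05). Mars1 and Eprs under miR-Exo were at -0.05 and -0.04 and not called when scaled by library size alone. Gars, Mars1 and Eprs kept their calls under every alternative for NPPC-Exo, and Gars did for miR-Exo. Aars and Wars1 were the pair called higher under both kinds of exosome when scaled by library size alone.

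Among the 8 regulators 3 fell and 1 rose under NPPC-Exo (median -0.23), and 6 fell under miR-Exo (median -0.53); scaled by library size alone 2 fell and 2 rose under NPPC-Exo, with a median of 0.06, and 4 fell and 2 rose under miR-Exo. Atf4 itself had 226, 240.3 and 243 CPM with erastin and NPPC-Exo against 311, 263 and 283 CPM with NPPC-Exo. It had 217, 222 and 208 CPM with erastin and miR-Exo against 378, 358 and 322 CPM with miR-Exo. The erastin libraries were lower in both, with log2 fold changes of -0.27 ± 0.07 (adjusted p = 0.00554) and -0.71 ± 0.07 (adjusted p = 1.8e-06); scaled by library size alone the first was 0.01 and not called, while the second stayed called. ATF4 protein is set largely by translation, and protein was not measured. Nupr1 had 37.9, 39.3 and 39.6 CPM with erastin and NPPC-Exo against 92.5, 112 and 136 CPM with NPPC-Exo. It had 47.2, 47.9 and 52.8 CPM with erastin and miR-Exo against 120.0, 125 and 119 CPM with miR-Exo. The erastin libraries lay below the others without overlap, and Nupr1 fell by 1.54 (adjusted p = 7.15e-08) and 1.30 (adjusted p = 3.14e-07) on the log2 scale.

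Cebpg, a C/EBP partner of ATF4, fell by 0.46 under NPPC-Exo and 0.23 under miR-Exo, and the value under miR-Exo crossed 0 when scaled by library size alone. Trib3, a pseudokinase that restrains ATF4 and AKT, had 17.3, 27.3 and 26.1 CPM with erastin and NPPC-Exo against 36.4, 32.5 and 23.3 CPM with NPPC-Exo, which overlapped. It had 17.9, 16.9 and 22.3 CPM with erastin and miR-Exo against 51.8, 51.0 and 48.7 CPM with miR-Exo, which did not. The changes were -0.38 ± 0.18 (adjusted p = 0.105) and -1.41 ± 0.18 (adjusted p = 2.54e-05). Ddit3, which encodes the stress factor CHOP, and Jdp2, a repressor of the AP-1 family, had 0.07 ± 0.09 and -0.18 ± 0.10 under NPPC-Exo, neither called. Under miR-Exo Ddit3 fell by 0.37 (adjusted p = 0.00402) and Jdp2 by 0.69 (adjusted p = 0.000101). Scaled by library size alone Ddit3 was at -0.07 under miR-Exo and not called, and at 0.36 under NPPC-Exo and called higher. Ppp1r15a encodes GADD34, the phosphatase subunit that removes the phosphate from eIF2α, and was the only one of the 37 genes called higher with erastin on the trimmed-mean scale. It had 72.1, 78.5 and 73.2 CPM with erastin and NPPC-Exo against 58.8, 66.5 and 60.1 CPM with NPPC-Exo, without overlap, a log2 fold change of 0.27 ± 0.07 (adjusted p = 0.00546). Under miR-Exo it had 0.17 ± 0.07 (adjusted p = 0.0608). Cebpb had 0.46 ± 0.51 and 0.96 ± 0.50 and was not called in any comparison; scaled by library size alone it was called higher under miR-Exo, at 1.28, as was Ppp1r15a at 0.47.

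The 3 genes that restrain the growth kinase complex mTORC1, or translation downstream of it, were mixed. Eif4ebp1, whose protein blocks cap-dependent translation, fell by 0.29 under NPPC-Exo (adjusted p = 0.00937) and 0.63 under miR-Exo (adjusted p = 1.87e-05). Sesn2, the leucine sensor sestrin 2, had 0.10 ± 0.05 and 0.10 ± 0.05, and Ddit4, which encodes REDD1, had 0.36 ± 0.27 and -0.29 ± 0.27; scaled by library size alone Sesn2 was called higher in both, and Eif4ebp1 under NPPC-Exo was at -0.005 and not called.

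Vldlr fell most of the 37 genes under NPPC-Exo and by nearly as much under miR-Exo. It had 48.7, 45.9 and 48.9 CPM with erastin and NPPC-Exo against 239.6, 239.9 and 284 CPM with NPPC-Exo. It had 68.1, 74.6 and 65.5 CPM with erastin and miR-Exo against 332, 341 and 364 CPM with miR-Exo. The groups lay far apart, and the log2 fold changes were -2.41 ± 0.08 (adjusted p = 4.1e-11) and -2.32 ± 0.08 (adjusted p = 4.75e-11). Stc2, a secreted glycoprotein called stanniocalcin 2, had -0.10 ± 0.13 and -0.29 ± 0.13 and was not called. Gdf15 had 3.85, 3.9 and 4.56 CPM with erastin and NPPC-Exo against 4.14, 1.36 and 1.23 CPM with NPPC-Exo, with 1 NPPC-Exo library inside the range of the erastin libraries. It had 1.24, 0.616 and 3.1 CPM with erastin and miR-Exo against 12.0, 9.24 and 5.92 CPM with miR-Exo, without overlap. Its log2 fold changes were 0.87 ± 0.52 (adjusted p = 0.206) and -2.45 ± 0.54 (adjusted p = 0.00196).

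**Figure D4:**
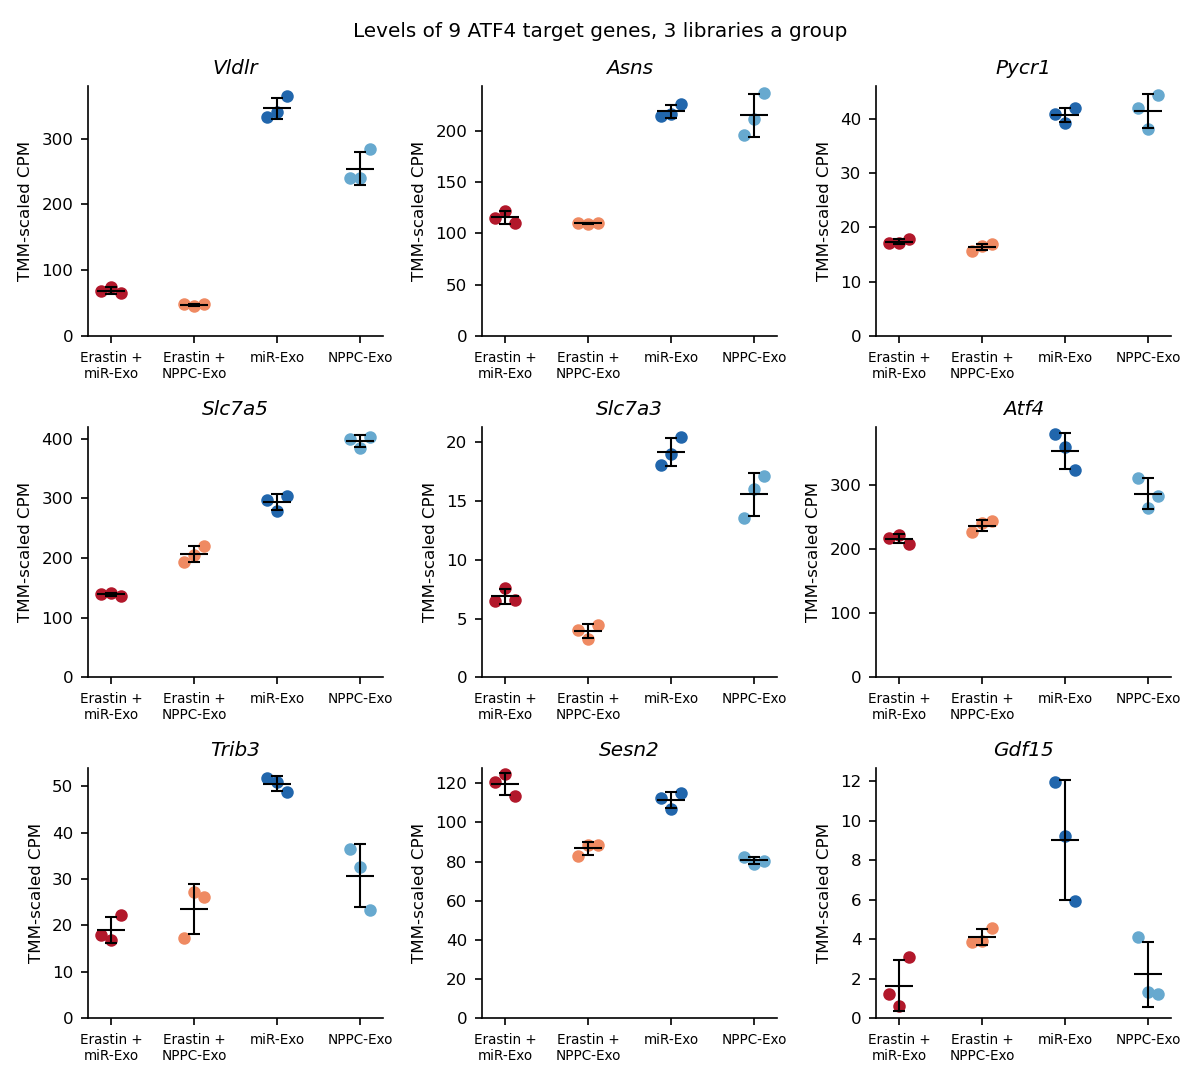
TMM-scaled CPM (y axis, from 0) of 9 of the genes in each library, with the mean and SD of 3 libraries a group as black bars. The erastin libraries of Vldlr, Asns, Pycr1, Slc7a5 and Slc7a3 all lie below those without erastin, whereas Sesn2 separates by the kind of exosome, at 113 to 125 CPM with erastin and miR-Exo against 83.1 to 88.7 CPM with erastin and NPPC-Exo.

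Of the 10 genes with the ATF4 letters in their window, 7 were lower with erastin under NPPC-Exo and 10 under miR-Exo, and of the 22 with a window but without the letters 11 and 14 were lower. Over all tested genes matched to a window by exact symbol, 29.9% of the 241 with the letters were lower under NPPC-Exo. Of the 10445 without the letters 23.7% were, and the shares were 30.3% and 26.3% under miR-Exo. Both lists are described by these counts, with no test.

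Genes that share pathways with the 37 but are not among them did not all go the same way. Over all genes 21.5% were called higher and 22.1% lower under NPPC-Exo, and 40.9% and 11.7% when scaled by library size alone. Of 14 other cytosolic tRNA synthetases and their scaffolds, 3 rose and 3 fell under NPPC-Exo (21.4% each, median 0.04), close to the shares of all genes. Among them Lars1 (leucine) was at -0.59 ± 0.05 and Kars (lysine) at 0.45 ± 0.07. Scaled by library size alone 12 rose and 1 fell. Of 17 mitochondrial synthetases 1 rose and 3 fell, against 11 that rose and 0 that fell when scaled by library size alone. Of 15 other genes of the folate and methionine cycles 8 rose and 1 fell (median 0.44), led by Tyms, which makes thymidylate, at 1.40 ± 0.07 (adjusted p = 4.42e-09), with Mthfd1l at 0.69 ± 0.06 and Mthfd1 at 0.62 ± 0.06. Under miR-Exo 7 of the 15 rose and none was called lower, against 24.7% and 24.4% of all genes. With library size alone 8 of the 15 rose and 0 fell under NPPC-Exo, against 40.9% and 11.7% of all genes. On that scale 10 rose and 0 fell under miR-Exo, against 44.5% and 13.8% of all genes. Of 18 other amino acid transporters 9 fell and 1 rose under NPPC-Exo (median -0.30), and 7 fell and 4 rose scaled by library size alone. Among them the neutral amino acid transporters Slc1a4 and Slc38a1 were at -1.23 ± 0.06 and -0.63 ± 0.05 under NPPC-Exo. The taurine transporter Slc6a6 was at -0.66 ± 0.06 there. Under miR-Exo 8 of the 18 fell and 4 rose (median -0.20), against 24.4% and 24.7% of all genes. With library size alone 5 fell and 5 rose under miR-Exo, against 13.8% and 44.5% of all genes.

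Slc7a11, the cystine-importing chain of system xc- that erastin blocks, is itself a known ATF4 target. It had 14.6, 13.2 and 14.5 CPM with erastin and NPPC-Exo against 34.9, 36.9 and 36.6 CPM with NPPC-Exo, and 17.5, 19.7 and 17.5 CPM with erastin and miR-Exo against 23.6, 24.4 and 24.4 CPM with miR-Exo. It fell by 1.36 (adjusted p = 8.94e-09) and 0.41 (adjusted p = 0.000549) on the log2 scale; scaled by library size alone the value under miR-Exo was -0.10 and not called. Of 9 further stress factors 6 fell and 2 rose under NPPC-Exo (median -0.38), against 22.1% and 21.5% of all genes. Under miR-Exo 4 fell and 3 rose (median -0.07), against 24.4% and 24.7% of all genes. Scaled by library size alone 4 fell and 3 rose under NPPC-Exo (median -0.10), against 11.7% and 40.9% of all genes. On that scale 2 fell and 4 rose under miR-Exo (median 0.23), against 13.8% and 44.5% of all genes. Chac1, which breaks down glutathione, fell by 0.84 under NPPC-Exo (adjusted p = 6.09e-05) and 1.06 under miR-Exo (adjusted p = 6.82e-06). Atf5, a factor induced together with ATF4, fell by 1.12 and 1.95. The endoplasmic reticulum stress sensor Atf6 fell by 0.66 and 0.45, the second not called when scaled by library size alone (-0.14). Of the 4 eIF2α kinases, under NPPC-Exo PKR (Eif2ak2) rose by 0.55 ± 0.08 and PERK (Eif2ak3) fell by 0.37 (-0.08 and not called scaled by library size alone). HRI (Eif2ak1) fell by 0.26 (0.02 and not called scaled by library size alone), and GCN2 (Eif2ak4) had -0.01 ± 0.06 (0.27 and called scaled by library size alone). Under miR-Exo PKR rose by 0.69 ± 0.08 and GCN2 by 0.17 ± 0.06 (adjusted p = 0.0362). PERK and HRI had -0.14 ± 0.06 and -0.12 ± 0.06 there, neither called, and both crossed 0 when scaled by library size alone.

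Without erastin, miR-Exo against NPPC-Exo raised 10 of the 37 genes and lowered 1, with 26 not called, where 4.15% of all genes were called higher and 6.52% lower (10.7% in all). The medians were 0.10 over the 37 genes and 0 over all genes. Scaled by library size alone 14 rose and 1 fell, against 8.08% and 3.68% of all genes, and the median of all genes was 0.08. The 10 were the regulators Atf4, Trib3 and Ppp1r15a, the mTORC1 brake Sesn2, the transporter Slc38a2, the synthetases Aars and Wars1, and all 3 secreted or surface genes. Libraries did not overlap for 13 genes that were higher and 1 that was lower, against 13% and 15.8% of all genes. None of the 10 enzymes of amino acid and one-carbon synthesis was called, and their values ran from -0.24 for Aldh18a1 to 0.19 for Phgdh.

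Sesn2 had 113, 107 and 115 CPM with miR-Exo against 82.5, 78.8 and 80.5 CPM with NPPC-Exo, and 120.5, 125 and 113 CPM with erastin and miR-Exo against 83.1, 88.7 and 88.4 CPM with erastin and NPPC-Exo. The kinds of exosome did not overlap in either setting, with log2 fold changes of 0.47 ± 0.05 (adjusted p = 0.000141) and 0.46 ± 0.05 (adjusted p = 3.33e-05). Ppp1r15a had 94.2, 86.4 and 84.9 CPM with miR-Exo against 58.8, 66.5 and 60.1 CPM with NPPC-Exo, and 92.2, 103 and 102 CPM with erastin and miR-Exo against 72.1, 78.5 and 73.2 CPM with erastin and NPPC-Exo. It also separated by exosome in both settings, at 0.52 ± 0.07 (adjusted p = 0.000428) and 0.41 ± 0.07 (adjusted p = 0.000553). Stc2 had 14.2, 16.6 and 14.5 CPM with miR-Exo against 8.09, 9.3 and 10.9 CPM with NPPC-Exo, and 11.4, 11.3 and 14.3 CPM with erastin and miR-Exo against 8.6, 8.59 and 9.27 CPM with erastin and NPPC-Exo. Its libraries did not overlap, at 0.68 ± 0.13 (adjusted p = 0.00505) and 0.48 ± 0.13 (adjusted p = 0.0125). Slc7a5 went the other way in both settings, at -0.43 ± 0.05 without erastin (adjusted p = 0.000277) and -0.57 ± 0.05 with it (adjusted p = 6.73e-06).

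Atf4 was higher by 0.30 ± 0.07 (adjusted p = 0.0137) and Trib3 by 0.72 ± 0.18 (adjusted p = 0.0227) with miR-Exo, and Gdf15 by 2.01 ± 0.53 (adjusted p = 0.0291). Vldlr rose by 0.44 ± 0.07 and Wars1 by 0.27 ± 0.05, and Aars and Slc38a2 by 0.19 ± 0.04 and 0.16 ± 0.04. Leaving out 1 library ended some of these calls: Gdf15, Trib3, Atf4, Aars and Slc38a2 lost theirs without NPPC-Exo replicate 2, which left 5 of the 10, and without miR-Exo replicate 1 Gdf15, Trib3, Atf4 and Slc38a2 did, which left 6. Without NPPC-Exo replicate 1, 3 genes were lower, with Aldh18a1 and Nars1 beside Slc7a5. Ppp1r15a, Sesn2, Wars1, Vldlr, Stc2 and Slc7a5 kept their calls in this comparison under every alternative run. Outside the 37 genes, Atf3, a stress factor induced by ATF4, had 22.3, 27.1 and 26.3 CPM with miR-Exo against 8.63, 9.6 and 9.48 CPM with NPPC-Exo, a log2 fold change of 1.45 ± 0.11 (adjusted p = 5.93e-06). Slc7a11 was lower with miR-Exo, at -0.58 ± 0.07 (adjusted p = 0.00034).

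With erastin, miR-Exo against NPPC-Exo raised 14 of the 37 genes and lowered 5, with 18 not called, where 15.6% of all genes were called higher and 15.8% lower (31.3% in all). The medians were 0.08 over the 37 genes and 0.01 over all genes. Scaled by library size alone 17 rose and 4 fell, against 24.2% and 11.1% of all genes, and the median of all genes was 0.12. Without overlap 17 genes were higher and 9 lower, against 24.5% and 23.4% of all genes. The transporters Slc7a3, Slc6a9 and Slc38a2 rose by 0.81 ± 0.13, 0.52 ± 0.08 and 0.40 ± 0.04, and the synthetases Wars1, Sars1, Mars1 and Eprs by 0.21 to 0.29. Cebpg rose by 0.30 ± 0.06 and Vldlr by 0.54 ± 0.07. Ddit3 had 21.7, 23.7 and 22.7 CPM with erastin and miR-Exo against 33.4, 33.1 and 30.6 CPM with erastin and NPPC-Exo, and fell by 0.51 (adjusted p = 0.000863). Jdp2 had 15.3, 15.0 and 19.8 CPM with erastin and miR-Exo against 24.6, 22.7 and 24.5 CPM with erastin and NPPC-Exo, and fell by 0.52 (adjusted p = 0.00229). Neither gene's libraries overlapped. Shmt2 and Pck2 fell by 0.32 and 0.28, and Pck2 was not called when scaled by library size alone. Nupr1 (0.34) lost its call without any 1 of the 6 erastin libraries. Aldh1l2 (0.22) lost it without replicate 1 or 2 of either erastin group or without NPPC-Exo replicate 2. Mars1 lost it without replicate 1 or 3 of erastin with NPPC-Exo or replicate 2 of erastin with miR-Exo. Stc2 lost it without replicate 2 of erastin with NPPC-Exo or replicate 3 of erastin with miR-Exo, and Pck2 without replicate 2 of either erastin group. Across both settings 6 genes rose with miR-Exo (Ppp1r15a, Sesn2, Slc38a2, Wars1, Vldlr and Stc2) and Slc7a5 fell, against 2.41% of all genes higher and 4.04% lower in both.

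**Figure D5:**
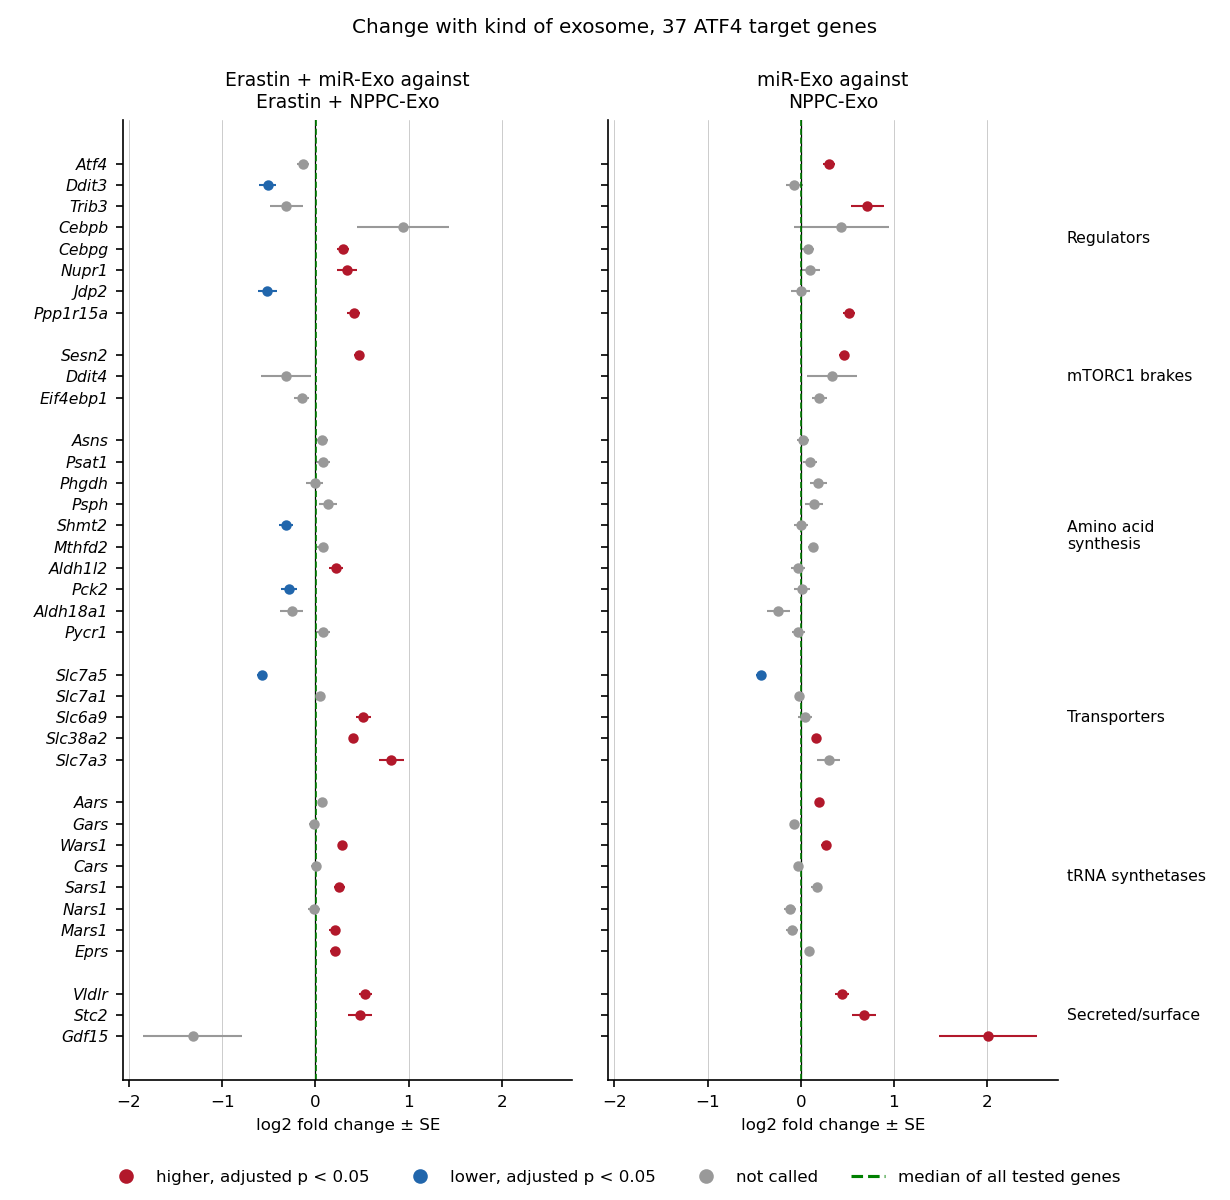
Log2 fold change of miR-Exo against NPPC-Exo (x axis, ± SE) for the 37 genes, with erastin (left) and without (right), 3 libraries a group; the green dashed line is the median of all tested genes. Sesn2, Ppp1r15a, Vldlr, Wars1, Slc38a2 and Stc2 are called higher in both panels and Slc7a5 lower in both.

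The interaction asked whether the change with erastin differed between miR-Exo and NPPC-Exo. It was called for 8 of the 37 genes, 3 positive and 5 negative, where 5.81% of all genes were positive and 7.01% negative (12.8% in all), with medians of -0.003 over the 37 genes and 0.03 over all genes. A negative value means that the log2 fold change with erastin was lower under miR-Exo than under NPPC-Exo, whichever way each went. Of the 8 regulators 4 were negative: Atf4 at -0.44 ± 0.10 (adjusted p = 0.0124), Ddit3 at -0.44 ± 0.13 (adjusted p = 0.0385), Trib3 at -1.03 ± 0.25 (adjusted p = 0.0204) and Jdp2 at -0.51 ± 0.15 (adjusted p = 0.0379). Gdf15 was negative at -3.33 ± 0.75 (adjusted p = 0.0131). Of these 5, Atf4, Trib3 and Gdf15 were called higher with miR-Exo without erastin and were not called between the kinds of exosome with erastin. Ddit3 and Jdp2 were not called between the kinds of exosome without erastin and were called lower with miR-Exo with it. The transporters Slc6a9 and Slc38a2 were positive at 0.47 ± 0.11 (adjusted p = 0.0163) and 0.24 ± 0.06 (adjusted p = 0.0226), and Mars1 at 0.30 ± 0.09 (adjusted p = 0.0346). None of the 10 enzymes of amino acid synthesis was called. Scaled by library size alone Ddit3 was at -0.42 and not called (adjusted p = 0.051). Atf4 and Gdf15 kept the call under every alternative run. On leaving out single libraries the count ranged from 0 to 6 positive and 2 to 7 negative. There were 0 positive without replicate 1 or 2 of erastin with NPPC-Exo or replicate 2 of erastin with miR-Exo. There was 1 positive without NPPC-Exo replicate 2, replicate 3 of erastin with NPPC-Exo or replicate 1 of erastin with miR-Exo, and there were 6 without NPPC-Exo replicate 1. There were 3 negative without miR-Exo replicate 3 or replicate 1 or 3 of erastin with NPPC-Exo, and 2 without replicate 1 of erastin with miR-Exo.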

How the data were processed

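Per the labels' protocols, total RNA of rat nucleus pulposus cells was extracted with TRIzol and made into dUTP-marked, strand-specific libraries. The authors deposited raw counts per gene and FPKM for all 12 libraries. Per the submitters' processing notes the reads went through StringTie on build mRatBN7.2; the sources used here do not name an aligner or counter. Of counts from 1 to 20, 57.3% were even, so halved counts were run as an alternative.

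Counts were filtered with filterByExpr, scaled by trimmed means (TMM factors 0.877 to 1.15) and fitted on the 4 group means with edgeR 4.0.16 (R 4.3.3), all 12 libraries sharing 1 estimate of spread, with Benjamini-Hochberg adjustment over 15650 genes. FPKM, as deposited, served for levels between genes. DESeq2 1.42.0, limma 3.58.1 on log2 FPKM, other scalings and filters, a replicate block and leaving out each library were alternatives. Replicates differed by 12.4 to 50.6 times sampling noise (chi-square over its degrees of freedom), so none was counted as a duplicate.

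The genes and lists were chosen with earlier results of these data known. Beside the 37 genes, up to 4 genes of each related list with the smallest adjusted p for erastin under NPPC-Exo are named, with Slc7a11, Chac1, Atf3 and the 4 eIF2α kinases. A gene that this rule names is not reported here.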

Additional observations from a re-analysis of the deposited data

Results flagged for a closer look

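The change with erastin under miR-Exo was tested against that under NPPC-Exo (edgeR's quasi-likelihood test, Benjamini-Hochberg adjusted). This difference was called for 8 of the 37 genes and for 5 of the other genes named, against 12.8% of all genes. Apart from those named whatever their result, the other genes were picked for a small adjusted p with erastin under NPPC-Exo. That change is part of this difference, so the count of 5 is no result about them. On the log2 scale the differences were -0.437 for Atf4, -0.443 for Ddit3, -1.026 for Trib3, -0.513 for Jdp2 and -3.326 for Gdf15. In these genes the change with erastin, not the level, was lower under miR-Exo. The differences were 0.468 for Slc6a9, 0.241 for Slc38a2 and 0.302 for Mars1, where the change with erastin was higher under miR-Exo. Among the other genes the difference was 0.955 for Slc7a11 and 0.782 for Nfil3, and -0.824 for Atf5, -0.856 for Slc6a6 and -0.369 for Farsa. Nfil3, a transcription factor of the bZIP family, had 68.0, 71.2 and 69.3 CPM with erastin and miR-Exo against 51.5, 58.0 and 59.6 CPM with miR-Exo. It had 32.1, 30.7 and 28.1 CPM with erastin and NPPC-Exo against 42.3, 40.7 and 43.8 CPM with NPPC-Exo, so erastin moved it up under miR-Exo and down under NPPC-Exo. Groups of 3 libraries are too small for a test of single libraries that stand apart.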

How the results depend on the processing

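Scaling moved the erastin results most. Scaled by library size alone, 6 of the 37 genes were higher and 15 lower under NPPC-Exo, and 6 higher and 17 lower under miR-Exo. The shares of all genes were 40.9% higher and 11.7% lower under NPPC-Exo, and 44.5% and 13.8% under miR-Exo. With limma on log2(FPKM + 1), log2(FPKM + 0.1) and log2(FPKM + 1) without a filter, in that order, 7, 7 and 6 were higher and 14, 14 and 13 lower under NPPC-Exo, and 6, 6 and 5 were higher and 17, 17 and 16 lower under miR-Exo. Of all genes 45.9%, 45.9% and 29.9% were then higher and 13.2%, 13.2% and 8.82% lower under NPPC-Exo. Under miR-Exo 50.7%, 50.2% and 33.8% of all genes were higher and 15.6%, 15.6% and 10.3% lower. The share of higher genes among all called genes went to 77.8% under NPPC-Exo and 76.4% under miR-Exo with library size alone, against 49.3% and 50.4% on the trimmed-mean scale.

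Genes with negative log2 fold changes crossed 0. Of genes called on at least 1 of the scales compared, those under NPPC-Exo were, with library size alone, Atf4 (0.010), Shmt2 (0.24), Mthfd2 (0.052), Slc38a2 (0.030), Aars (0.23), Wars1 (0.20), Eif2ak1 (0.021) and Eif2ak4 (0.27). With limma, where a second value is that of the pseudocount 0.1, they were Atf4 (0.007), Shmt2 (0.229, 0.231), Mthfd2 (0.046), Slc38a2 (0.024), Aars (0.224, 0.226), Wars1 (0.185, 0.189), Eif2ak1 (0.015) and Eif2ak4 (0.231, 0.263). Under miR-Exo those called on at least 1 scale were, with library size alone, Cebpg (0.073), Mthfd2 (0.017), Slc38a2 (0.29), Aars (0.13), Wars1 (0.24), Cars (0.005), Nars1 (0.080), Eif2ak1 (0.19), Eif2ak3 (0.16) and Farsa (0.25). With limma they were Cebpg (0.064, 0.067), Mthfd2 (0.012), Slc38a2 (0.283, 0.284), Aars (0.121, 0.122), Wars1 (0.225, 0.229), Nars1 (0.072, 0.073), Eif2ak1 (0.172, 0.180) and Farsa (0.237, 0.245). Of the 37 genes, Jdp2 (0.10), Phgdh (0.055), Psph (0.061) and Stc2 (0.19) under NPPC-Exo, and Psph (0.075), Stc2 (0.010) and Ddit4 (0.014) under miR-Exo, also crossed 0 with library size alone and were called on neither scale.

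Elsewhere 2 genes were higher under NPPC-Exo with only the groups compared, and 1 under miR-Exo with a mean of at least 1 CPM. Limma without a filter gave 3 lower for miR-Exo against NPPC-Exo with erastin and 3 negative for the interaction. Leaving out single libraries gave 1 to 2 higher and 23 to 25 lower for erastin under NPPC-Exo, and 0 to 2 higher and 29 to 30 lower under miR-Exo. There were 2 higher under NPPC-Exo without replicate 1 of NPPC-Exo or of miR-Exo, 2 under miR-Exo without miR-Exo replicate 1, and 1 without replicate 1 of erastin with miR-Exo. It gave 5 to 10 higher and 1 to 3 lower for miR-Exo against NPPC-Exo, 11 to 14 and 4 to 6 with erastin, and 0 to 6 positive and 2 to 7 negative for the interaction. Of the 23 genes lower under NPPC-Exo 13 kept the call under every alternative run, and of the 29 under miR-Exo 16 did. Beyond the scaling itself and the smaller number of libraries, the cause of these changes was not tested. Depth limits Cebpb (15 to 103 counts per library) and Gdf15 (42 to 695).

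Same-numbered libraries were not treated as paired. Of 18 correlations of their deviations 1 passed 0.1 (range -0.157 to 0.257), and 4 of 12 libraries correlated best with their own number. The labels state no pairing, and these values cannot show whether cultures or batches were shared across groups. With the replicate block 1 gene was higher and 24 lower under NPPC-Exo, 0 and 31 under miR-Exo, 10 and 1 for miR-Exo against NPPC-Exo, 14 and 5 with erastin, and 3 and 5 for the interaction.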
